A study of Mus musculus with 8 samples.

Results

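The 9 genes described here encode parts of the phosphoinositide 3-kinase (PI3K) and AKT pathway and of its growth factor feedback. They were chosen by symbol. Pik3cd, Pik3r1, Akt1, Akt2 and Irs2 were grouped as activators, and Pik3ip1, Inpp5d, Inpp4b and Phlpp1 as brakes. Of the 9 genes, 7 (4 activators and 3 brakes) had probe sets that the platform annotation assigns to a single gene, out of 17097 such genes on the array, and all 7 were among the 11413 genes tested. Pik3ip1, a transmembrane inhibitor of PI3K, shared both of its probe sets with Limk2 in the annotation and is given no value. Irs2, the adaptor that links insulin and cytokine receptors to PI3K, was listed for no probe set in the annotation used here and was not analysed.

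RNA came from regulatory T cells, which hold immune responses in check, sorted as CD4+CD25+ cells from spleen and peripheral lymph nodes of C57Bl/6J mice and used without treatment. There were 4 arrays from CD4(cre)Raptor(fl/fl) mice (RaptorKO), where Cre under the control of Cd4 removes the floxed Rptor gene, and 4 arrays from wild-type mice (WT). Rptor encodes Raptor, the scaffold of the kinase complex mTORC1, and the comparison asks which transcripts differ in regulatory T cells when it is deleted. Cd4 drives Cre in developing T cells at large, so conventional T cells of these mice carry the deletion too. Neither age, sex nor the number of mice behind an array is given in the labels, so a p-value here weighs a difference against the spread of these arrays, part of which may be technical.

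In T cells, antigen receptors, costimulatory receptors and cytokine receptors recruit PI3K, which makes a membrane lipid that brings AKT to the plasma membrane for activation. Lipid phosphatases such as SHIP1 and INPP4B remove the lipid signal, and PHLPP phosphatases remove activating phosphate from AKT itself. AKT activates mTORC1 and keeps FOXO transcription factors out of the nucleus, while active mTORC1 restrains growth factor receptors and their adaptors in a negative feedback. Regulatory T cells are known for restrained AKT activity.

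All values are log2 intensities made by the authors with robust multi-array averaging (RMA), and each difference is RaptorKO minus WT in those units, given with the standard error (SE) from limma. A gene was called where its p, adjusted over all genes tested by the Benjamini-Hochberg method, was under 0.05. Array medians lay between 5.21 and 5.29, and every probe set of the 7 genes exceeded the 40th percentile of its array (4.69 to 4.81) on all 8 arrays. The targeted gene, Rptor, averaged 6.64 ± 0.22 in RaptorKO and 6.86 ± 0.12 in WT (SD, n = 4 each), a difference of -0.23 (limma adjusted p = 0.491), with RaptorKO 4 at 6.95 inside the WT range. A dimmer Rptor probe set differed by -0.42 with groups that did not overlap (limma with every probe set, adjusted p = 0.0923), and the position of either probe set relative to the deleted part is not known here. Foxp3 averaged 11.00 ± 0.03 in RaptorKO and 10.88 ± 0.07 in WT, and Il2ra, the CD25 chain of the sort, averaged 11.36 ± 0.06 in RaptorKO and 11.33 ± 0.14 in WT (SD, n = 4). Replicates 1 and 2 of both genotypes had high Xist (10.88 to 11.18) and replicates 3 and 4 low Xist (5.04 to 5.62) with raised Y-linked transcripts. These are called the female-pattern and male-pattern arrays, and the labels give no such division.

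None of the 7 measured genes was called in either direction (limma, 0 of 7), where 1.96% of all genes tested were called. At an unadjusted p under 0.05 there were 2 of 7, Phlpp1 and Inpp4b, against 1488 of 11413 genes. Both are brakes, and both had RaptorKO values below every WT value. Groups that did not overlap with RaptorKO lower were found for 5.09% of all genes, and with RaptorKO higher for 3.73%, against 0 of the 7. These are 7 genes, and nothing particular to the pathway is read from the counts. The median difference was -0.19 over the 7 genes, -0.12 over the 4 activators and -0.30 over the 3 brakes, against -0.01 over all genes tested. Differences were negative for 6 of the 7 genes, against 52.4% of all genes.

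**Figure D1:**
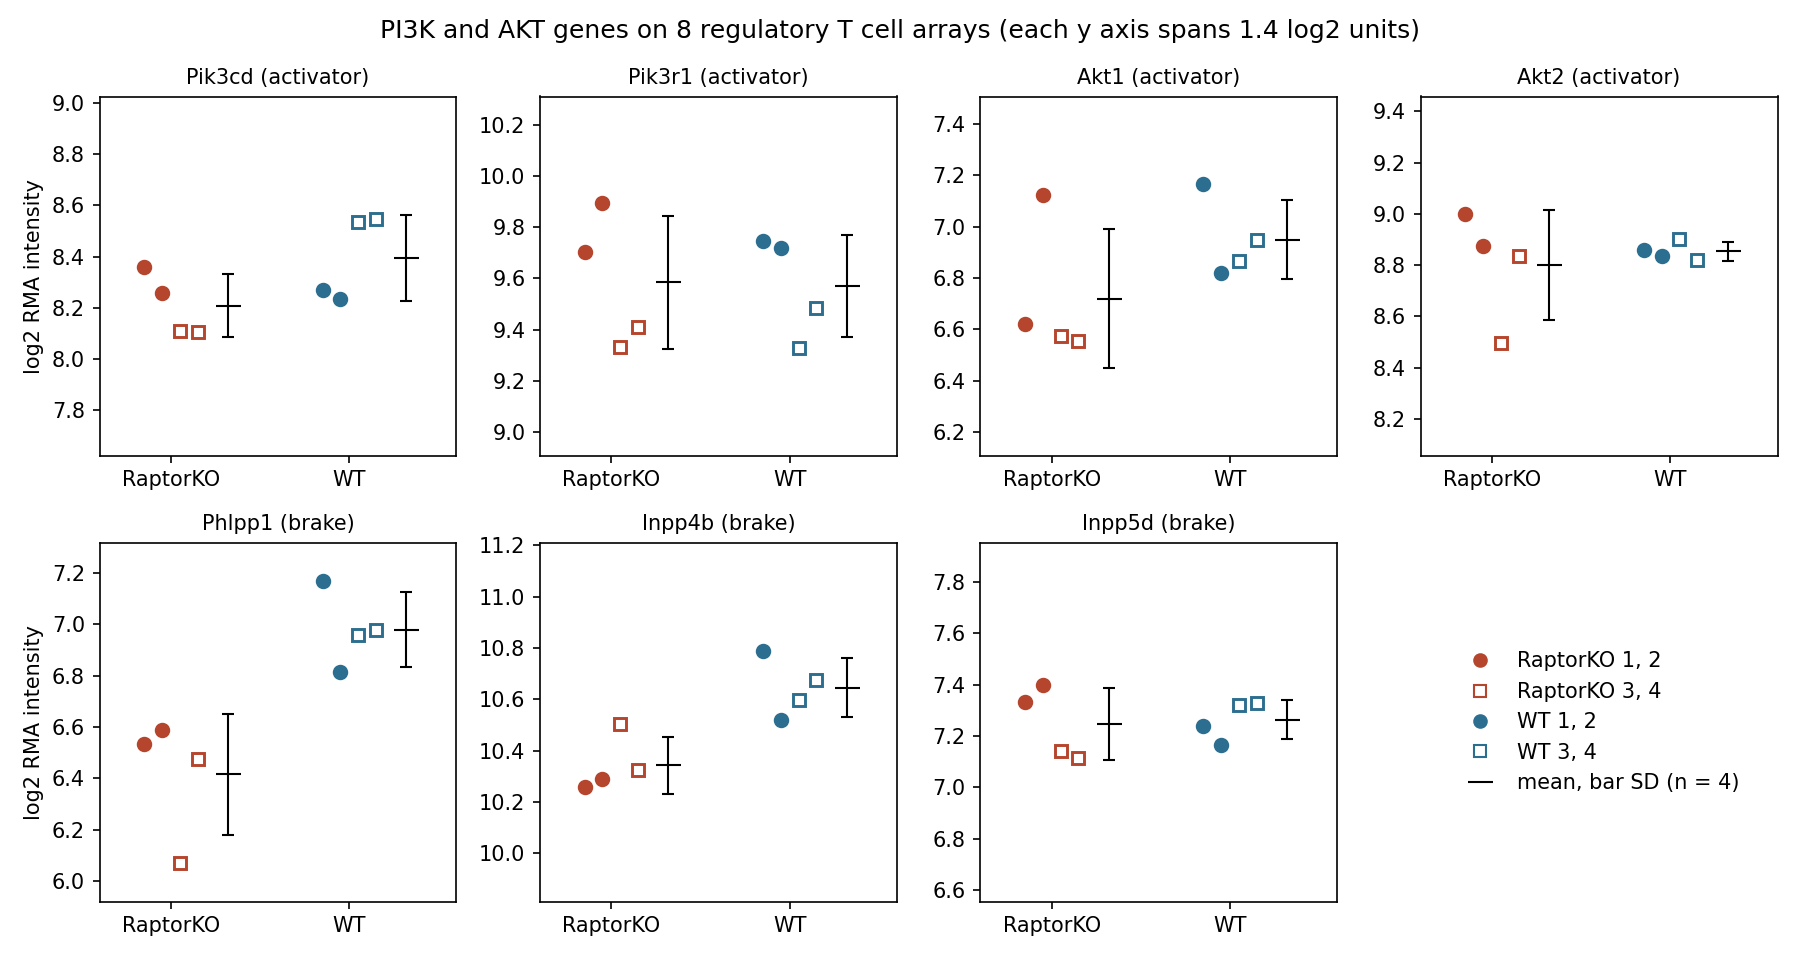
Log2 RMA intensity of the 4 activators and 3 brakes on each array, RaptorKO left and WT right, with the mean and SD of 4 arrays beside each group and open squares for replicates 3 and 4. Phlpp1 and Inpp4b are the panels in which the RaptorKO points (6.07 to 6.59 and 10.26 to 10.50) all lie below the WT points (6.81 to 7.17 and 10.52 to 10.79).

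Among the brakes, Phlpp1 had the largest difference of the 7 genes. Phlpp1 encodes a phosphatase that removes an activating phosphate from AKT. Its probe set read 6.53, 6.59, 6.07 and 6.48 in RaptorKO 1 to 4, against 7.17, 6.81, 6.96 and 6.98 in WT 1 to 4. All 4 RaptorKO arrays were lower than all 4 WT arrays, and RaptorKO 3 was the lowest. The means were 6.42 ± 0.24 in RaptorKO and 6.98 ± 0.15 in WT (SD, n = 4 each), a difference of -0.56 (SE 0.13, 95% interval -0.85 to -0.28), or 1.48-fold lower. By p-value Phlpp1 ranked 233 of 11413 genes, and its limma adjusted p = 0.0527 lay just past the threshold. Without RaptorKO 2 the difference was -0.62 and passed (limma adjusted p = 0.0424), the sole pass when each array was left out in turn. Over all 24 alternatives, with those runs and the fits within the array sets included, it passed in 9. The limma adjusted p lay between 0.0244 and 0.427, and the difference was negative in each of the 24. The difference was -0.43 within the female-pattern arrays, where adjusted p was highest, and -0.70 within the male-pattern arrays. With a term for this pattern in the fit of all 8 arrays the difference was the same and passed (limma adjusted p = 0.0465).

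Inpp4b encodes a phosphatase that acts on a lipid product of PI3K. Its brighter probe set read 10.26, 10.29, 10.50 and 10.32 in RaptorKO 1 to 4, against 10.79, 10.52, 10.60 and 10.68 in WT 1 to 4. The groups did not overlap, but RaptorKO 3 and WT 2 came within 0.1 of each other. The difference was -0.30 (SE 0.10, 95% interval -0.53 to -0.08, limma adjusted p = 0.197), and it was -0.38 within the female-pattern arrays and -0.22 within the male-pattern arrays. With an intensity trend in the variance the same difference passed (limma adjusted p = 0.0415), and it did not pass under the other alternatives. A dimmer Inpp4b probe set averaged 6.85 ± 0.42 in RaptorKO and 7.04 ± 0.09 in WT (SD, n = 4). On it RaptorKO 3, at 7.45, was the highest of all 8 arrays, and the groups overlapped (-0.19, limma with every probe set, adjusted p = 0.749).

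Inpp5d encodes SHIP1, the lipid phosphatase of blood cells that degrades the main product of PI3K, and its 2 probe sets gave different pictures. The brighter averaged 7.25 ± 0.14 in RaptorKO and 7.26 ± 0.08 in WT (SD, n = 4), a difference of -0.02 (95% interval -0.24 to 0.21, limma adjusted p = 0.974). The dimmer read 6.41, 6.54, 6.43 and 6.59 in RaptorKO 1 to 4, against 6.71, 6.66, 7.19 and 7.06 in WT 1 to 4. On this probe set every RaptorKO array lay below every WT array, with WT 3 and WT 4 well above the rest, and the difference was -0.41 (SE 0.13, limma with every probe set, adjusted p = 0.179). With the mean of both probe sets Inpp5d differed by -0.21 (limma adjusted p = 0.375). Which transcripts of Inpp5d the probe sets detect is not known here.

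The promoters of the 3 measured brakes are shown because the probe sets with RaptorKO wholly below WT belong to them, and because FOXO factors, which AKT controls, bind DNA at a known motif. Each runs from 250 bases before to 50 after an annotated transcript start, 5′ to 3′ on the gene's strand, from RefSeq on build GRCm38.p6. Phlpp1 lies at chr1:106171619-106171918 (plus strand), Inpp4b at chr8:81342312-81342611 (plus strand) and Inpp5d at chr1:87620062-87620361 (plus strand). Capitals mark every match to 3 motifs searched on both strands, the FOXO motif GTAAACA, the E-box CACGTG and the GC box GGGCGG, and GC box matches may overlap.
Phlpp1: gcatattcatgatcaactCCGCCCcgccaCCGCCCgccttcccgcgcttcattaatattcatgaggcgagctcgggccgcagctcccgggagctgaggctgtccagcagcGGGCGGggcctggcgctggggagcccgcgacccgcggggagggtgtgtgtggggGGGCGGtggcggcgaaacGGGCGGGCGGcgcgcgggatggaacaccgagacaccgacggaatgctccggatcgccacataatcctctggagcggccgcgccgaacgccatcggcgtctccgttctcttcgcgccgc
Inpp4b: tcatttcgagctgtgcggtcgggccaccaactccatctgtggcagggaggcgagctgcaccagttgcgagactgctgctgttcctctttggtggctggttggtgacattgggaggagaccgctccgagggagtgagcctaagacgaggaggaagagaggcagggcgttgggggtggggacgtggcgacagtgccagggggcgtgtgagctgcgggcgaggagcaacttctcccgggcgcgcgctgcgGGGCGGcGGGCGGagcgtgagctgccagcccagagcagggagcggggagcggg
Inpp5d: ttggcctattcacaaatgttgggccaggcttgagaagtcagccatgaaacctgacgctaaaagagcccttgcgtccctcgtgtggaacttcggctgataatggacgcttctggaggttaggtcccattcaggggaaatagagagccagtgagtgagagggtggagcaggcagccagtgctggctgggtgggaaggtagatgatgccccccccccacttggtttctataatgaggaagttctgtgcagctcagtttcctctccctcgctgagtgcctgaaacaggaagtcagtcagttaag
The Phlpp1 promoter held 6 GC box matches, 2 of them overlapping each other, the Inpp4b promoter held 2, and the Inpp5d promoter held 0. No FOXO or E-box match was found in the 3 windows. Over all 32851 promoters of the table, 35.7% held the GC box, 3.65% the FOXO motif and 7.15% the E-box. GC content was 70.7% for Phlpp1, 68.3% for Inpp4b and 53.7% for Inpp5d. Of the promoters of all 9 genes, a FOXO match was found at 1 of the 2 annotated Akt1 starts and an E-box match at Irs2. The GC box was not particular to the brakes, with 5 matches at an Akt1 start, 4 at a Pik3r1 start and 3 and 1 at Pik3cd starts. It had 1 match at an Akt2 start and 1 at Irs2, and 0 at the other starts of these genes and at Pik3ip1. These matches describe letters in short windows, and no binding was measured.

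Among the activators, Pik3cd encodes the PI3K catalytic subunit delta, which predominates in lymphocytes. It read 8.36, 8.26, 8.11 and 8.11 in RaptorKO 1 to 4, against 8.27, 8.23, 8.53 and 8.55 in WT 1 to 4. RaptorKO 3 and 4 were the lowest arrays and WT 3 and 4 the highest, while replicates 1 and 2 of both genotypes lay together. The difference was -0.19 (SE 0.11, 95% interval -0.43 to 0.06, limma adjusted p = 0.554). Within the female-pattern arrays it was 0.06 and within the male-pattern arrays -0.43. This difference between the sets of -0.49 did not pass (limma interaction, adjusted p = 0.371). The interaction called 0 of all genes tested, with 2 arrays per genotype in each set, so the lack of a pass says little about Pik3cd. The 2 dimmer Pik3cd probe sets also had negative differences, -0.38 (limma with every probe set, adjusted p = 0.215) and -0.26 (adjusted p = 0.494), and their groups overlapped.

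Pik3r1 encodes the regulatory subunit that stabilises the catalytic subunits and docks them to receptors. It read 9.70, 9.89, 9.33 and 9.41 in RaptorKO 1 to 4, against 9.75, 9.72, 9.33 and 9.49 in WT 1 to 4. The genotypes differed by 0.02 (SE 0.14, 95% interval -0.30 to 0.33, limma adjusted p = 0.981). The arrays instead lay apart by replicate number, with 9.70 to 9.89 on the 4 female-pattern arrays and 9.33 to 9.49 on the 4 male-pattern arrays. Of the 4 Pik3r1 probe sets, 3 separated these sets without overlap, and on the remaining one the lowest female-pattern array (8.96) was just under the highest male-pattern array (8.97). Pik3r1 was the sole member of the 7 whose main probe set separated the sets, as 4.2% of all genes tested did. Sex and any handling shared by these arrays cannot be told apart.

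AKT is represented by Akt1 and Akt2, related kinases with broad and partly overlapping roles in growth and survival. Akt1 read 6.62, 7.12, 6.57 and 6.56 in RaptorKO 1 to 4, against 7.17, 6.82, 6.87 and 6.95 in WT 1 to 4. Of the RaptorKO arrays 3 lay below all WT arrays, while RaptorKO 2 was above 3 of the 4 WT arrays. The difference was -0.23 (SE 0.14, 95% interval -0.54 to 0.08, limma adjusted p = 0.557), -0.37 without RaptorKO 2 (adjusted p = 0.129) and -0.11 with myeloid markers as a covariate (adjusted p = 0.834). The dimmer Akt1 probe sets differed by -0.03 and 0.06, so the lower mean of the brightest was not shared by them. Akt2 read 9.0, 8.87, 8.50 and 8.84 in RaptorKO 1 to 4, against 8.86, 8.84, 8.90 and 8.82 in WT 1 to 4. The WT arrays spanned less than 0.1 and RaptorKO 3 lay below all other arrays. Akt2 differed by -0.05 (SE 0.12, 95% interval -0.30 to 0.20, limma adjusted p = 0.92), and its dimmer probe set by -0.04. A further probe set, listed for Akt2 and for its pseudogene Akt2-ps, was not used.

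**Figure D2:**
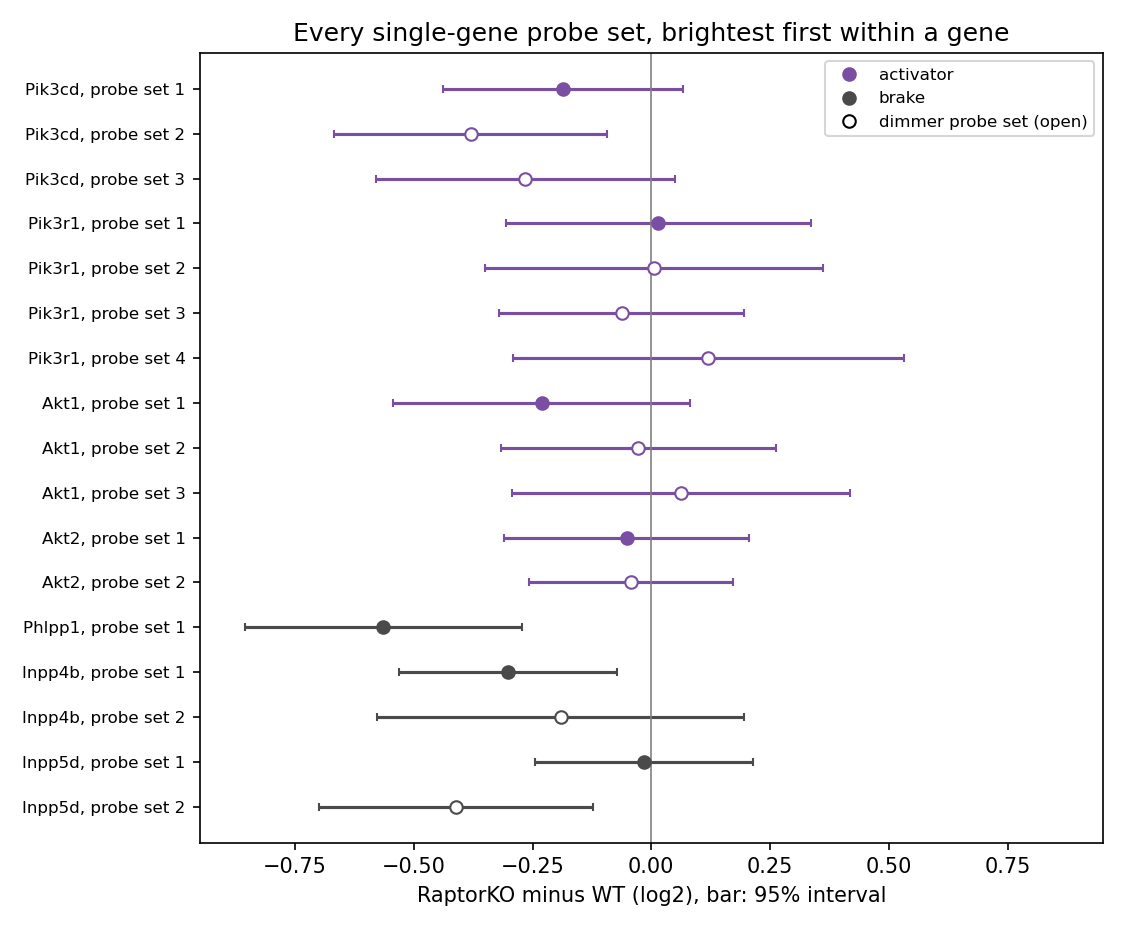
RaptorKO minus WT log2 differences and their 95% limma intervals for all 17 single-gene probe sets of the 7 genes, activators above brakes, brightest probe set first and filled. Of the 17, 13 differences are negative, and the lowest is Phlpp1 at -0.56, while the 4 Pik3r1 probe sets lie between -0.06 and 0.12.

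Tested singly, 13 of the 17 probe sets of these genes had negative differences and 4 positive ones. Of the 17, 3 had RaptorKO wholly below WT (Phlpp1, the brighter Inpp4b and the dimmer Inpp5d), against 5.24% of 18583 probe sets. RaptorKO lay wholly above WT for 0 of the 17, and that share over all probe sets was not computed. Over all genes tested it was 3.73%. Nothing particular to the pathway is read from these counts either. None of the 17 was called, where 1.74% of all probe sets were called (limma with every probe set).

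Activators and brakes were also set against each other within each array. The mean of the 3 brakes was 8.04, 8.09, 7.91 and 7.97 in RaptorKO 1 to 4, against 8.40, 8.17, 8.29 and 8.33 in WT 1 to 4, with no overlap. The mean of the 4 activators was 8.42, 8.54, 8.13 and 8.23 in RaptorKO 1 to 4, against 8.51, 8.40, 8.41 and 8.45 in WT 1 to 4, with overlap. Levels of different probe sets are not comparable, so the gap between both means can be read between genotypes alone. That gap, activators minus brakes, was 0.33 ± 0.10 in RaptorKO and 0.15 ± 0.06 in WT (SD, n = 4 each), higher by 0.18 in RaptorKO. RaptorKO 3, at 0.22, lay just below WT 2, at 0.23, and the other RaptorKO arrays lay above every WT array. The brake mean differed by -0.29 and the activator mean by -0.11. Among the brakes, Phlpp1 differed by -0.56, Inpp4b by -0.30 and Inpp5d by -0.02, so Phlpp1 weighed most in the shift. A shift without Phlpp1 was not computed. No p-value is given because the genes were chosen with results of these data known. The shift was 0.24 within the female-pattern arrays and 0.12 within the male-pattern arrays, and 0.25 with the mean of each gene's probe sets.

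**Figure D3:**
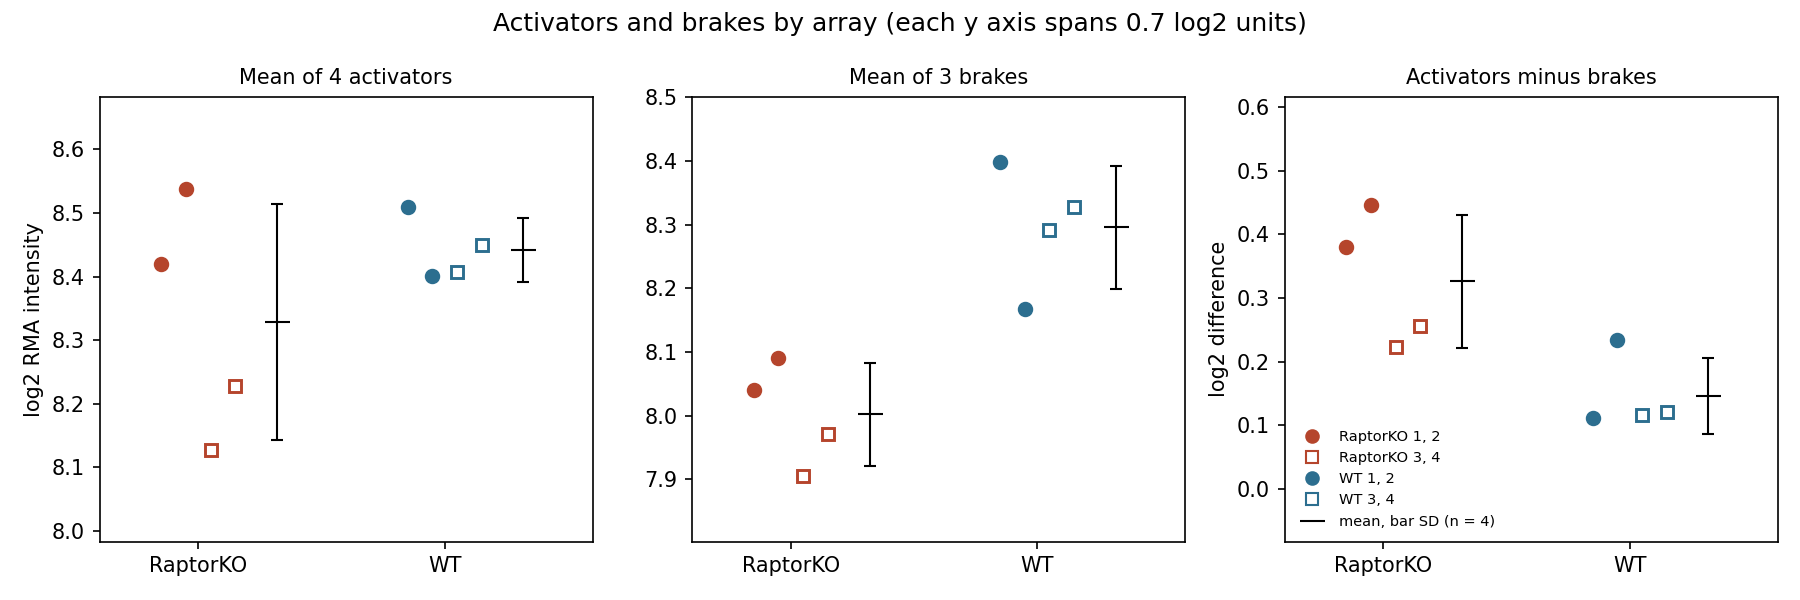
Mean log2 RMA intensity of the 4 activators and of the 3 brakes, and activators minus brakes, on each array, RaptorKO left and WT right, with mean and SD of 4 arrays. The brake means do not overlap (7.91 to 8.09 in RaptorKO, 8.17 to 8.40 in WT), the activator means do. Among the 3 brakes the largest difference is that of Phlpp1 (-0.56).

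**Figure D4:**
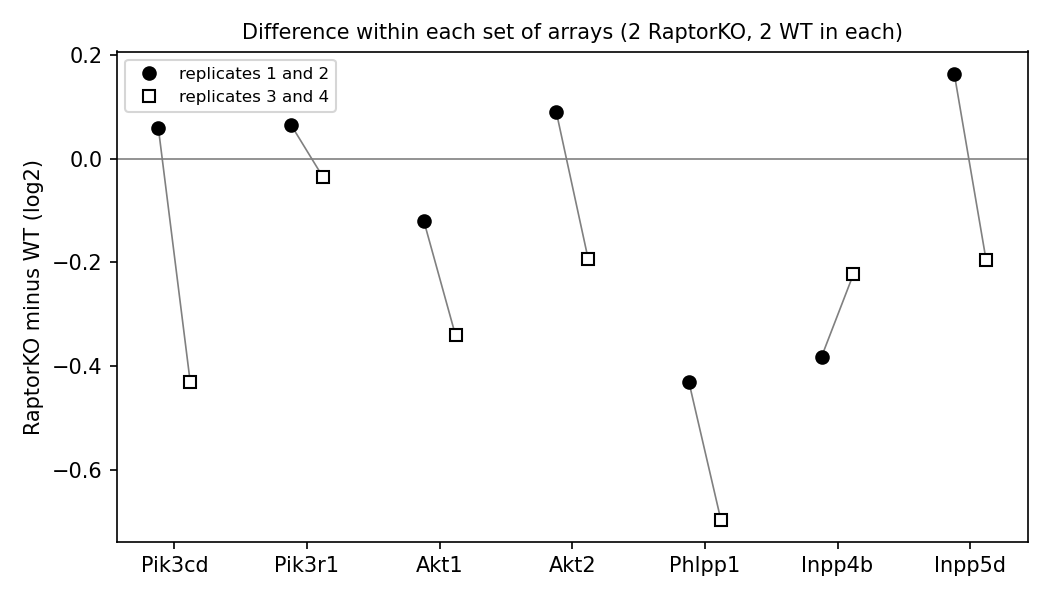
Difference RaptorKO minus WT on the log2 scale within replicates 1 and 2 (female pattern) and within replicates 3 and 4 (male pattern), 2 RaptorKO and 2 WT arrays in each. Phlpp1, Inpp4b and Akt1 are negative in both sets, and Pik3cd is at 0.06 in the female-pattern set and at -0.43 in the male-pattern set.

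The members of the pathway outside the 9 genes were read from 6 lists of 124 different genes in all, a few of them in 2 lists, of which 89 were tested. Of these 0 were called higher and 3 called lower, against 0.824% called higher and 1.14% called lower over all genes. Their differences were positive for 36 and negative for 53, with a median of -0.07. Trat1, an adaptor of the T cell receptor complex that can bind PI3K, was the called gene of 16 tested PI3K subunits and adaptors. It read 6.53, 6.70, 6.46 and 6.61 in RaptorKO 1 to 4, against 8.19, 7.72, 7.88 and 7.73 in WT 1 to 4, and fell by 1.30 (SE 0.12, limma adjusted p = 0.000235), or 2.47-fold. The rest of that list included the catalytic subunit Pik3ca (0.08), the catalytic subunit Pik3cg (-0.11) and the adaptor Pik3ap1 (0.45, limma adjusted p = 0.0844), and the list median was -0.07.

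Map3k5, a stress kinase that AKT inhibits by phosphorylation, was the called gene of 13 tested AKT substrates. It read 6.93, 6.80, 6.90 and 7.28 in RaptorKO 1 to 4, against 7.70, 7.73, 7.68 and 7.92 in WT 1 to 4, and fell by 0.78 (SE 0.12, limma adjusted p = 0.00652). Bcl2l11, which encodes the death-promoting protein BIM and is induced by FOXO factors, was the called gene of 19 tested FOXO targets. It read 8.35, 8.49, 8.14 and 8.01 in RaptorKO 1 to 4, against 9.31, 9.16, 8.88 and 8.93 in WT 1 to 4, and fell by 0.83 (SE 0.14, limma adjusted p = 0.00945). For Trat1, Map3k5 and Bcl2l11 every RaptorKO array lay below every WT array, and each call held when any 1 array was left out. Among the FOXO targets 13 of 19 differences were negative, with a median of -0.14, and the stress-induced Sesn3 (-0.47, limma adjusted p = 0.0702) and Sesn1 (-0.47, adjusted p = 0.164) did not pass. The FOXO factors themselves differed by -0.17 for Foxo1, 0.18 for Foxo3 and -0.17 for Foxo4, and none passed.

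The other lists had no called gene. In 16 growth factor receptors and feedback regulators, 10 differences were positive and 6 negative (median 0.02). The smallest p-values belonged to the adaptor Dok2 (-0.24, limma adjusted p = 0.312) and the receptor Igf1r (-0.27, adjusted p = 0.313). Igf1r read 8.08 to 8.44 in RaptorKO and 8.44 to 8.60 in WT, with RaptorKO 1 and WT 2 level at 8.44. Insr, the insulin receptor, differed by 0.03. Of the 21 genes of this list, Grb10, Grb14, Igf2r, Spry2 and Kit were not tested. Irs1, of the list of PI3K subunits and adaptors, was not tested either, so these values leave part of the feedback unmeasured. In 11 lipid phosphatases 9 differences were negative (median -0.12), and the smallest p-values belonged to Synj2 (-0.18, limma adjusted p = 0.603) and Inpp5b (-0.21, adjusted p = 0.611). In 18 AKT kinases, phosphatases and inhibitors 9 were positive and 9 negative (median 0.03), with the smallest p-values for the pseudokinase Trib2 (-0.43, limma adjusted p = 0.176) and the PP2A subunit Ppp2r5a (-0.27, adjusted p = 0.252). Trib2 passed without RaptorKO 2 (-0.56, limma adjusted p = 0.0313).

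**Figure D5:**
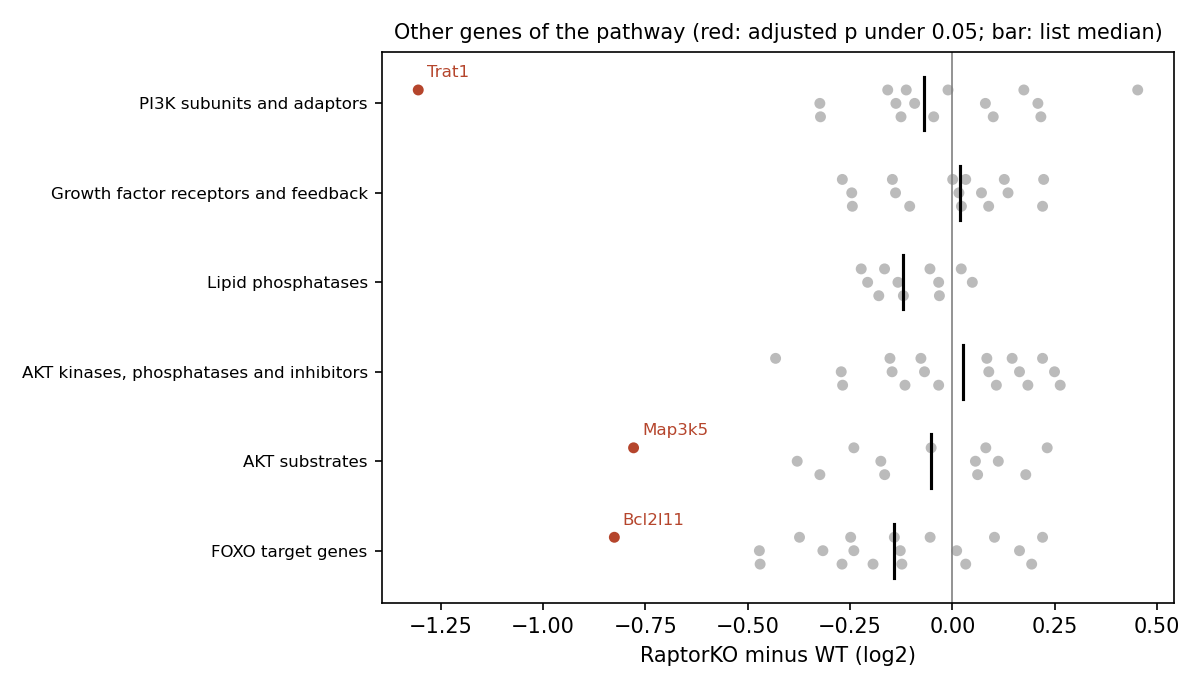
Difference RaptorKO minus WT on the log2 scale for each tested gene of the 6 pathway lists, a point per gene, red where called by limma, with a bar at the list median. Trat1 (-1.30), Bcl2l11 (-0.83) and Map3k5 (-0.78) are the called genes, and the list medians lie between -0.14 and 0.03.

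The genes whose pattern over the 8 arrays was most like that of Phlpp1, after each gene was centred on its own mean, were Cdipt, Sesn3 and Gbp2, with root mean square differences of 0.07, 0.09 and 0.10 on the log2 scale. Their differences between genotypes were -0.61, -0.47 and -0.57, against -0.56 for Phlpp1, and Gbp2 was called (limma adjusted p = 0.029).

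Marker genes of T cells and of other cells were also compared between the groups. The per-array means of each list overlapped between the groups, except for the general T cell markers. General T cell markers were lower in RaptorKO for 6 of 6, with mean levels of 10.27 to 10.40 in RaptorKO and 10.45 to 10.65 in WT, and both CD8 markers had lower means, with mean levels of 6.08 to 7.03 in RaptorKO and 6.32 to 8.07 in WT. Regulatory T cell markers were higher for 4 and lower for 4 of 8 (10.07 to 10.25 in RaptorKO, 10.17 to 10.38 in WT). The single called marker was Nrp1, a co-receptor on many regulatory T cells, at 7.68 ± 0.19 in RaptorKO and 9.12 ± 0.30 in WT (SD, n = 4), a difference of -1.44 (limma adjusted p = 0.000736), and the other 7 averaged 10.48 in RaptorKO and 10.49 in WT. Naive CD4 T cell markers were lower for 5 of 5 (8.43 to 8.65 in RaptorKO, 8.54 to 8.81 in WT). Myeloid markers were higher for 11 of 13, with mean levels of 5.44 to 6.09 in RaptorKO and 4.89 to 5.78 in WT, and Itgam and Adgre1 were under the filter on every array. B cell markers were higher for 4 of 7 (5.31 to 5.81 in RaptorKO, 4.89 to 6.03 in WT), with Blnk under the filter on every array, and NK cell markers for 3 of 5 (4.34 to 4.49 in RaptorKO, 4.06 to 4.68 in WT), of which Ncr1, Klrb1c and Klra8 were under the filter on every array. Erythroid and platelet markers were higher for 3 of 3 (5.38 to 5.77 in RaptorKO, 4.90 to 5.44 in WT), with Ppbp under the filter on every array. Among markers over the filter on at least 4 arrays, 9 of 10 myeloid, 3 of 4 B cell, 2 of 2 NK cell and 2 of 2 erythroid and platelet markers were higher. Pik3cd and Inpp5d are expressed in most blood cells, and in these bulk samples fewer cells of a type and less RNA per cell cannot be told apart. With the myeloid marker mean as a covariate the differences were -0.46 for Phlpp1 (limma adjusted p = 0.161) and -0.30 for Inpp4b (adjusted p = 0.315). The myeloid means were 4.89 to 5.52 on the female-pattern arrays and 5.69 to 6.09 on the male-pattern arrays, without overlap. This covariate, also used for Akt1 above, therefore follows that split too and does not isolate myeloid content. The part of the T cell markers in the lower levels of the brakes was not tested.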

How the data were processed

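Expression was measured on 8 one-colour oligonucleotide arrays, with 4 RaptorKO and 4 WT samples grouped by their titles. The deposited values are log2 intensities per probe set made by the authors with RMA, per the submitters' processing notes, and RMA removes differences in total signal between arrays. The version, probe definitions and genome build are not given in the sources used here. No further normalization was applied, and the number of arrays limits the precision.

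Probe sets were named from the platform annotation, and symbols were updated through Entrez identifiers with a RefSeq table of GRCm38.p6. Of 45141 probe sets, 28898 listed 1 gene (28689 matched), 551 listed several and were not named, and 15692 listed none. A gene was represented by its brightest probe set (mean of 8 arrays), which was tested if it exceeded the 40th percentile of its array on at least 4 arrays. RaptorKO was compared with WT in limma 3.58.1 under R 4.3.3 (lmFit and eBayes, no covariates), with Benjamini-Hochberg adjustment over all genes tested. The script was tested on simulated data.

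The members, the lists and the tests were chosen with earlier results of these data known. Values were named for the 9 genes, Rptor, Foxp3 and Il2ra, each called gene of a list or, where none was called, the 2 smallest p-values, and the 3 patterns most like the member with the smallest p. Sesn1, Foxo1, Foxo3, Foxo4, Insr, Pik3ca, Pik3cg and Pik3ap1 were added after their values were seen. Alternatives covered the block on replicate number, probe set choice, filter, scaling, variance model, array weights, a 1.5-fold minimum, each array left out, the array sets and a myeloid covariate. Plots were made in Python 3.11.15 (matplotlib 3.10.9).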

Additional observations from a re-analysis of the deposited data

Results flagged for a closer look

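In the RaptorKO group, the Akt1 value of RaptorKO 2 stood apart from the others. It was 7.12, against 6.56 to 6.62 on the other RaptorKO arrays, and the gap to the nearest was 0.88 of the range of the group, over Dixon's limit at the 95% level for 4 values. Chance flags about 1 in 20 groups, and 14 were examined. The other Akt1 probe sets read 6.92 and 5.96 on the same array. RaptorKO 2 also had the lowest array weight of the 8 (0.469).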

How the results depend on the processing

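The count of called members was 0 in the reported fit. It was 1 (Phlpp1) with the mean of probe sets, a 60th percentile filter, quantile normalization, centring on the 75th percentile, robust variance, array weights or a term for the sex-linked pattern, and 2 (Phlpp1 and Inpp4b, both lower) with an intensity trend. It was 0 under the 8 remaining alternatives other than leaving out an array, and 0 to 1 when each array was left out. The called members higher numbered 0 in all of these. The 1.5-fold minimum only added a cut-off to the reported fit, so it could neither add a call nor move a member across the threshold. Activators minus brakes differed by 0.18 and by 0.14 to 0.22 without 1 array. Of 168 values for single members, 158 kept their side of the threshold and 10 crossed it, all from not called to called, while Pik3cd, Pik3r1, Inpp5d and Akt2 had differences of either sign across the alternatives. Genes called in all were 224, against 370 with an intensity trend, 101 to 257 without 1 array, 9 within the female-pattern and 85 within the male-pattern arrays, where 4 arrays remain. Trat1 (-1.34, adjusted p = 0.0973), Map3k5 (-0.85, adjusted p = 0.134) and Bcl2l11 (-0.82, adjusted p = 0.139) lost their calls within the female-pattern arrays, and Map3k5 within the male-pattern arrays (-0.71, adjusted p = 0.109). Replicate numbers are shared by the groups, but deviations of same-numbered arrays correlated at 0.16, -0.15, 0.11 and 0.03, so the numbers were not taken as pairs. With the replicate block 175 genes and 0 members were called, and Phlpp1 had adjusted p = 0.0761 (limma). The main probe sets of the 7 genes lay over the filter on all 8 arrays, and whether their intensity limited the calls was not tested.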
